A study of Mus musculus with 11 samples.

Results

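The goblet cell mucins and their mucus program were followed across airway RNA of mice with an asthma exacerbation, of the same model treated with GGsTop, and of controls. Members were the 10 genes whose mouse Ensembl identifiers map to Muc5ac, Muc5b, Spdef, Foxa3, Agr2, Clca1, Fcgbp, Tff2, Itln1 and Gcnt3, of 21899 genes in the table. All 10 were found, and 9 had a mean of at least 0.5 FPKM over the libraries and entered the test, while Gcnt3 did not. FPKM is a fragment number scaled to transcript length and to library depth, so levels can be compared between genes per length.

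The series holds 11 mRNA libraries from wild-type male BALB/c mice several weeks old. PBS mice (3 libraries, labelled PBS) were not sensitised and received buffer. OVA/LPS/Vehicle mice (4 libraries, labelled OL and numbered 12, 34, 56 and 78) were sensitised with ovalbumin (OVA) in alum, challenged with intranasal OVA, given intranasal lipopolysaccharide (LPS, a component of bacterial walls) and treated with vehicle through the trachea. OVA/LPS/GGsTop mice (4 libraries, labelled OLG) went through the same steps but received GGsTop, which blocks γ-glutamyl transferase, the enzyme that begins glutathione breakdown outside cells. Whether a library number such as 12 stands for pooled animals is not stated. The labels give the tissue as trachea, whereas the methods describe airways freed of lung by blunt dissection and frozen without the trachea.

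Goblet cells lie in the surface lining of the conducting airways and pack gel-forming mucins into secretory granules. The mucin polymers are folded in the endoplasmic reticulum, decorated with O-linked sugars in the Golgi and released together with smaller proteins that join the mucus gel. In the mouse airway, interleukin 13 acting through STAT6 is the known driver of the switch from club cells to mucus-making cells, in which SPDEF and FOXA3 turn on the mucous genes. Such mucous metaplasia is a hallmark of allergic airway models.

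The FPKM steps and exon lengths implied scaling totals of 14513136 to 18632380 fragments per library. Club cell and ciliated cell markers were present in every library, with the secretoglobin Scgb1a1 at 26145 to 47905 FPKM and the summed ciliated list of 8 genes at 731 to 1510 FPKM. Some libraries stood apart. The summed level of 6 basal cell markers (Krt5, Krt14, Krt15, Trp63, Ngfr and Aqp3), which the trachea and large airways are rich in, was 47.2 FPKM in PBS 2 against 3.59 in PBS 1 and 2.73 in PBS 3. In the treated mice it was 100.4 FPKM in OVA/LPS/GGsTop 4 but only 1.58 in OVA/LPS/GGsTop 3. The dependence on base composition differed too. It was taken as the slope on GC content of each gene's deviation from its mean log2(FPKM + 1) over the 11 libraries. Per 10 percentage points it was -0.26 to -0.19 with vehicle and 0.05 to 0.11 with GGsTop. In PBS 1, 2 and 3 it was 0.06, 0.05 and 0.53. Mitochondrial genes made up 14.5 to 19.5% of all FPKM with vehicle, 7.40 to 11.1% with GGsTop and 2.08 to 10.1% in PBS. The part of this share in the group differences was not tested. The thyroid gene Tg was at 90.6, 166 and 303 FPKM in OVA/LPS/Vehicle 12, 34 and 56 but at 0.256 in vehicle 78 and at most 0.828 FPKM in PBS, and the thymus genes Dntt and Rag1 were at 13.8 and 8.53 FPKM in vehicle 12 alone of that group, against at most 0.301 FPKM in the others.

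All 10 mucus genes stood higher in OVA/LPS/Vehicle than in PBS airways, with no overlap between the libraries, and the 9 tested members passed the test (limma, adjusted p under 0.05). Among all 14004 genes tested, 15.9% were called higher in this comparison and 18.7% were higher without overlap. The median log2 fold change of the 9 members was 2.79, against -0.01 over all tested genes. In OVA/LPS/GGsTop airways 5 of the 9 members were called higher than in PBS, where 2.06% of all genes were. Between OVA/LPS/GGsTop and OVA/LPS/Vehicle airways none of the 9 passed the test (background 8.71%), and the libraries of the groups overlapped for all 10 members.

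**Figure D1:**
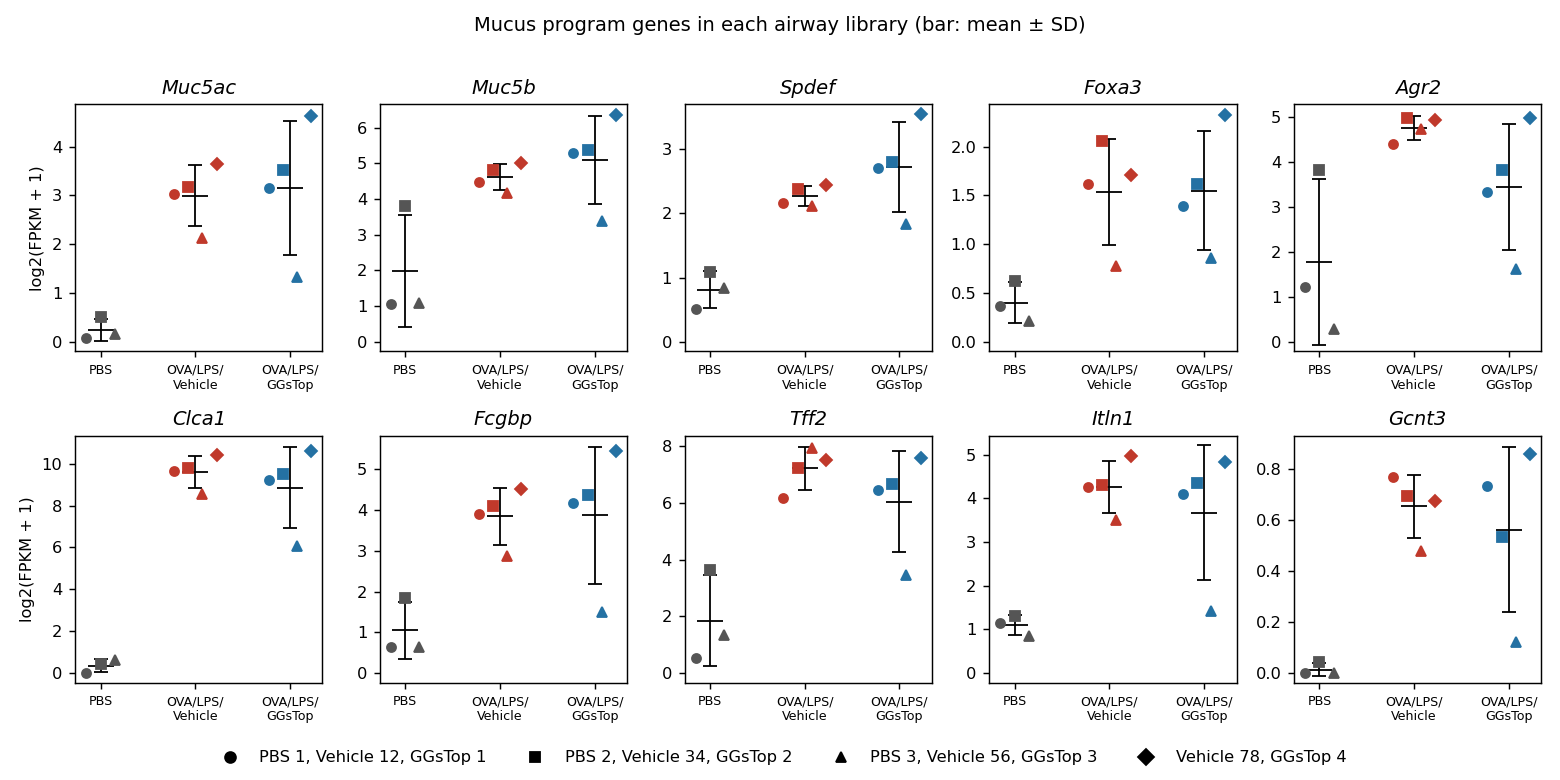
Level of each of the 10 mucus genes in each library as log2(FPKM + 1), by group, with the mean and SD beside the points (3 PBS libraries and 4 of each OVA/LPS group, marker shapes only name libraries). Every OVA/LPS/Vehicle point lies above every PBS point, and OVA/LPS/GGsTop 3 is the lowest and OVA/LPS/GGsTop 4 the highest of its group in all 10 panels.

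Muc5ac encodes the gel-forming mucin of surface goblet cells that is made in small amounts until allergic inflammation sets in. It was at 0.0556, 0.420 and 0.110 FPKM in PBS 1, 2 and 3. In the OVA/LPS/Vehicle libraries 12, 34, 56 and 78 it reached 7.21, 8.03, 3.38 and 11.5 FPKM. The OVA/LPS/GGsTop libraries 1 to 4 held 7.84, 10.5, 1.51 and 23.8 FPKM. Even the lowest vehicle library was 8.04-fold above the highest PBS library, while the GGsTop libraries reached both below and above the vehicle ones. Muc5ac rose in OVA/LPS/Vehicle by a log2 fold change of 2.75 (SE 0.60, limma adjusted p = 0.0077), on the log2(FPKM + 1) scale used throughout, which understates the change of genes at low levels.

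The primer pair that the study used for Muc5ac in quantitative PCR is shown because it marks the stretch of the transcript which that assay reads. With this assay the paper reported less MUC5AC RNA in OVA/LPS/GGsTop than in OVA/LPS/Vehicle mice. It also reported less mucus in stained lung sections under GGsTop, which is not a measure of RNA. Whether the animals of those assays were the ones sequenced is not stated. Both primers match the longest Muc5ac transcript of GENCODE release M21 (10752 bases) at bases 7763 to 7895, a product of 133 bases.
Muc5ac forward primer: ctgtgacattatcccataagccc
Muc5ac reverse primer: aaggggtatagctggcctga

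Muc5b encodes the mucin that keeps the airway clear in health and is made by glands and surface secretory cells. PBS 1 and 3 held 1.07 and 1.14 FPKM of it, but PBS 2 held 13.0 FPKM. The vehicle libraries 12, 34, 56 and 78 had 21.4, 27.3, 17.0 and 31.0 FPKM. In the GGsTop libraries 1 to 4 it was at 37.8, 40.3, 9.46 and 80.8 FPKM, so that 3 of the 4 lay above every vehicle library and the fourth below PBS 2. Muc5b rose in OVA/LPS/Vehicle over PBS by 2.63 on the log2 scale (SE 0.72, limma adjusted p = 0.0168), a call that was lost without PBS 1 or without PBS 3 (largest adjusted p = 0.0836). The lowest vehicle library stood 1.31-fold above PBS 2. Muc5b and Muc5ac lie side by side on chromosome 7 in a cluster that also holds the intestinal mucin gene Muc2, whose level did not exceed 0.239 FPKM in any library.

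The transcription factors of the program were expressed at low levels and rose with the mucins. Spdef, an ETS factor needed for goblet cell differentiation, stood at 0.432, 1.12 and 0.792 FPKM in PBS 1 to 3. Vehicle libraries 12, 34, 56 and 78 had 3.47, 4.20, 3.35 and 4.41 FPKM, and the GGsTop libraries 1 to 4 had 5.53, 5.95, 2.58 and 10.7 FPKM. Of all members Spdef varied least among the vehicle libraries relative to its mean (3.86 ± 0.528 FPKM, SD, n = 4), and 3 of the 4 GGsTop libraries lay above all of them. Its log2 fold change over PBS was 1.46 in OVA/LPS/Vehicle (SE 0.31, limma adjusted p = 0.0066).

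Foxa3, a forkhead factor known to promote mucous metaplasia in mouse airways, was at 0.293, 0.538 and 0.158 FPKM in PBS. Its vehicle values were 2.06, 3.17, 0.708 and 2.26 FPKM and its GGsTop values were 1.63, 2.06, 0.809 and 4.01 FPKM in the same library orders. Vehicle 56 came within 1.32-fold of the highest PBS library. Foxa3 rose by 1.14 on the log2 scale in OVA/LPS/Vehicle (SE 0.34, limma adjusted p = 0.0233), and this call was lost in 4 of 11 fits that left out 1 library, those without PBS 1, PBS 3, vehicle 34 or vehicle 78 (largest adjusted p = 0.0907).

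Since the members moved together, the start regions of those with an entry in the RefSeq promoter table (5 of the 10, build GRCm38.p6, 250 bases before to 50 bases after the start site) were searched on both strands for short motifs. For forkhead factors the letters TGTTTAC were searched, which occur in 3.65% of the 32851 promoters of the table. The forkhead variant TATTTAC, held by 3.04% of all promoters, was searched as well. A further forkhead variant, TGTTTGC, is held by 5.07%. The SPDEF letters CCGGAT occur in 6.04% of the promoters and the TATA box letters TATAAA in 13.6%. The STAT6 motif, a TTC set 4 bases before a GAA, occurs in 6.95%. Only 2 of the 5 members held any of them, without overlap with another motif, and a match is a description of letters and not a shown binding site. Capitals mark the match, TATTTAC read on the opposite strand at bases -47 to -41 in Spdef and TATAAA at bases -36 to -31 in Foxa3.
Spdef, chr17:27728902-27729201, minus strand: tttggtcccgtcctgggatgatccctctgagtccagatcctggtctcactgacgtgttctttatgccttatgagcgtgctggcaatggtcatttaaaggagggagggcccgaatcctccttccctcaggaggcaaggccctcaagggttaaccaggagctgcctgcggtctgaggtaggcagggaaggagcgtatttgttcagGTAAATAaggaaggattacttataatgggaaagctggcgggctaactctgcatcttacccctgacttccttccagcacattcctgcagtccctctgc
Foxa3, chr7:19023490-19023789, minus strand: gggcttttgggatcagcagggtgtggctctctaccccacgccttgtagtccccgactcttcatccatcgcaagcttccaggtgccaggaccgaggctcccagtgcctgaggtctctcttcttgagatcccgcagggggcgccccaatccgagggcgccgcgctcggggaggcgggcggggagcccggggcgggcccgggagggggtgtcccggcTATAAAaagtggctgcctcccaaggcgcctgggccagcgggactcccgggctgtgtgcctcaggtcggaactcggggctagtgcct

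Agr2 encodes the endoplasmic reticulum disulfide isomerase that mucins need for folding, and it was the member whose GGsTop values stood furthest below its vehicle values. PBS 1, 2 and 3 held 1.34, 13.1 and 0.208 FPKM. In the vehicle libraries 12, 34, 56 and 78 it lay close together, at 19.9, 30.2, 25.5 and 29.6 FPKM. The GGsTop libraries 1 to 4 had 9.11, 13.1, 2.06 and 30.6 FPKM, 3 of them below every vehicle library and the fourth above all. Agr2 rose in OVA/LPS/Vehicle over PBS by 2.98 (log2, SE 0.81, limma adjusted p = 0.0166), a call lost without PBS 1 or PBS 3 (largest adjusted p = 0.0869). Its start region, shown because Agr2 was the member that followed the others least closely, held none of the searched letters.
Agr2, chr12:35992675-35992974, plus strand: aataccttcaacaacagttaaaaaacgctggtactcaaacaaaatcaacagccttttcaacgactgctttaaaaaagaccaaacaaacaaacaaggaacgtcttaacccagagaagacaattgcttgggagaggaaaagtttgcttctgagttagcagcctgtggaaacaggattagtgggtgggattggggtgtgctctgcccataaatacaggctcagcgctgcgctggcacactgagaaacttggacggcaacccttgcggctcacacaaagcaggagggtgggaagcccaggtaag

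Among the secreted proteins of the mucus gel, Clca1 and Tff2 had the largest log2 fold changes of the 9 tested members. Clca1, a secreted metalloprotease abundant in the mucus of goblet cells, was listed at 0 in PBS 1, where 3 fragments would have given 0.0527 FPKM, and at 0.376 and 0.554 FPKM in PBS 2 and 3. It reached 808, 894, 374 and 1338 FPKM in vehicle libraries 12, 34, 56 and 78. The GGsTop libraries 1 to 4 held 589, 714, 67.0 and 1557 FPKM. No other member was as abundant after OVA and LPS, and the lowest vehicle library was 674-fold above the highest PBS library. The log2 fold change over PBS was 9.23 in OVA/LPS/Vehicle (SE 0.83, limma adjusted p = 0.0005) and stayed past the threshold in each of 11 fits that left out 1 library (largest adjusted p = 0.00528).

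Tff2, a trefoil peptide made in mucous cells of the stomach and of inflamed airways, was at 0.455, 11.5 and 1.56 FPKM in PBS 1 to 3. Vehicle libraries 12, 34, 56 and 78 had 71.4, 151, 246 and 182 FPKM, and the GGsTop libraries 1 to 4 had 87.3, 101, 10.1 and 191 FPKM. Unlike most members, Tff2 was highest among the vehicle libraries in number 56, the library in which 8 of the 10 members were lowest. Vehicle 56 also carried Lipf, an acid lipase of the stomach and of tongue glands, at 590 FPKM, against 60.0, 219 and 0.254 FPKM in vehicle 12, 34 and 78 and at most 2.45 FPKM in PBS. The gland secretory gene Dcpp2 was at 304 FPKM in vehicle 56 and at most 0.0733 FPKM in PBS. Thyroid Tg had the same order of vehicle libraries as Lipf in 12, 34 and 56. Of the other gastric mucosa genes of the list, Gkn1, Gkn2 and Tff1 were listed at 0 in all libraries, Gkn3 was at 0.155 to 2.45 FPKM, and Pgc, Gif, Atp4a and Atp4b were at 0 in some libraries and at most 0.776 FPKM in any. The part of gland, gastric-type or thyroid tissue in the Tff2 values was not tested. Tff2 rose over PBS by 5.37 on the log2 scale in OVA/LPS/Vehicle (SE 0.92, limma adjusted p = 0.0039). The neighbouring trefoil gene Tff3, which is typical of intestinal goblet cells, did not exceed 0.262 FPKM.

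Fcgbp encodes a large mucus protein that is linked to mucins in the gel. It had 0.569, 2.62 and 0.573 FPKM in PBS 1 to 3. The vehicle values, in the order 12, 34, 56 and 78, were 14.1, 16.1, 6.29 and 21.9 FPKM, all above PBS, while the GGsTop values of 17.2, 19.6, 1.81 and 43.1 FPKM included 1 library below PBS 2. The rise in OVA/LPS/Vehicle was 2.79 on the log2 scale (SE 0.75, limma adjusted p = 0.0160) and was not called without PBS 3 (adjusted p = 0.0679).

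Itln1 encodes intelectin, a lectin that binds microbial sugars and is secreted with mucus. It was at 1.22, 1.47 and 0.800 FPKM in PBS 1 to 3. The vehicle values were 18.1, 18.6, 10.3 and 30.1 FPKM and the GGsTop values 16.0, 19.3, 1.67 and 27.7 FPKM, the third GGsTop library thus lying just above the PBS libraries. Itln1 rose by 3.15 in OVA/LPS/Vehicle (log2, SE 0.65, limma adjusted p = 0.0064). Some mouse strains carry a near-identical intelectin gene, and reads of such a copy cannot be told apart here.

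Gcnt3, which encodes the glycosyltransferase that builds the branched core structures of mucin sugars, was nearly absent from PBS libraries. It was listed at 0 in PBS 1 and 3, where 3 fragments would have given 0.0463 and 0.0374 FPKM, and at 0.0300 in PBS 2 (2 fragments). The vehicle libraries held 0.705, 0.618, 0.394 and 0.598 FPKM, from 27 to 47 fragments each, and the GGsTop libraries 0.664, 0.449, 0.0884 and 0.817 FPKM. Both OVA/LPS groups lay above PBS without overlap. An exact two-sided permutation test of log2(FPKM + 1) gave p = 0.0571 for either group against PBS, the smallest value that 3 against 4 libraries allow.

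The 9 calls in OVA/LPS/Vehicle against PBS also held once every library was corrected for its own dependence on GC content, when 7.87% of all genes were called higher. Leaving out PBS 3 reduced them to 5 (Muc5ac, Spdef, Clca1, Tff2 and Itln1) and leaving out PBS 1 to 6, in both cases with the same direction for all 9. The tissue is a mixture, so more goblet cells and more RNA of these genes per cell cannot be told apart. Some markers of other cell types were called in the same comparison, where 15.9% of all genes were called higher and 22.1% lower. Called higher were 5 of 8 ciliated, 3 of 6 tested gland, 2 of 7 club cell and 2 of 5 cardiac muscle markers. So were 1 of 7 general epithelial, 1 of 2 tested gastric, 1 of 4 tested eosinophil and 1 of 4 tested thymus and thyroid markers. Called lower were 2 of 6 tested gland, 1 of 7 club cell, 2 of 7 alveolar and 1 of 5 smooth muscle markers. The part of these markers in the rise of the mucus genes was not tested.

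**Figure D2:**
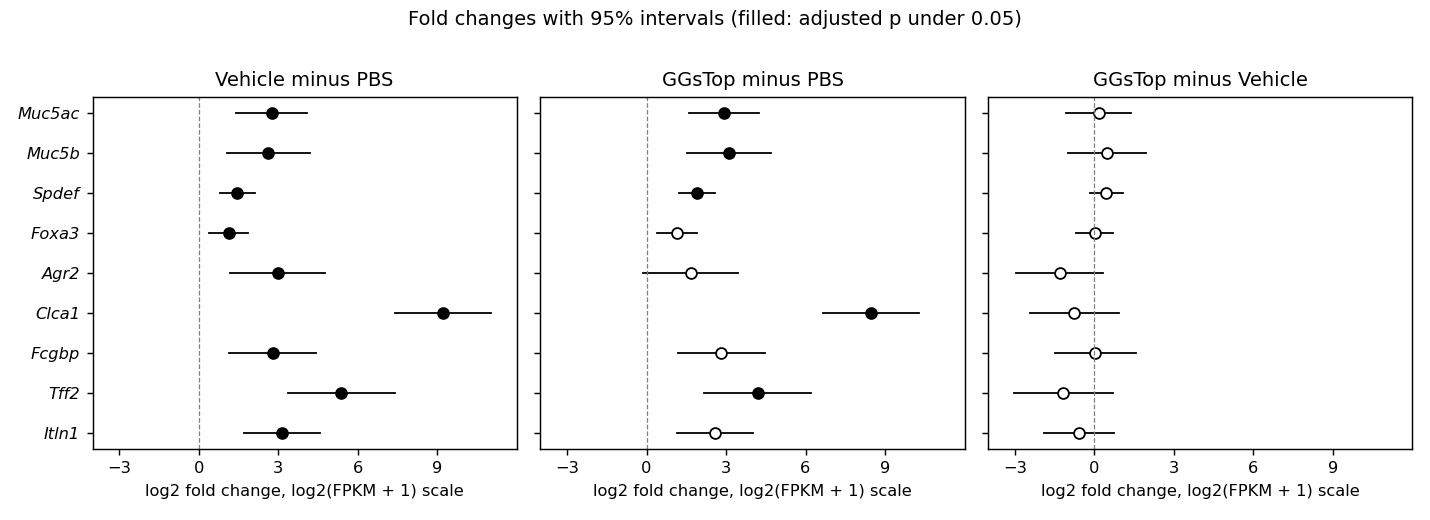
Log2 fold changes of the 9 tested members with 95% intervals for the 3 comparisons, filled where the limma adjusted p was under 0.05. All 9 are filled and right of 0 for vehicle against PBS, 5 are filled for GGsTop against PBS, and all 9 intervals span 0 for GGsTop against vehicle.

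The comparison of OVA/LPS/GGsTop with OVA/LPS/Vehicle asks whether the inhibitor changed the mucus program of the exacerbated airway. No member was called by limma, none had an unadjusted p under 0.05 (the smallest was 0.107, for Agr2), and limma voom on the recovered fragments called none. Of the 10 members 5 had a higher and 5 a lower mean on the log2 scale, and the sign of Muc5ac, Foxa3, Fcgbp, Clca1 and Itln1 changed under at least 1 alternative or without 1 library. The intervals were wide. For Muc5ac the log2 difference was 0.16 (95% interval -1.06 to 1.39) and for Muc5b 0.48 (-0.98 to 1.94). Spdef had the narrowest interval of the 9, with 0.45 (-0.17 to 1.07), followed by Foxa3 with 0.01 (-0.68 to 0.70).

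The folding and secreted members pointed down or were near 0 in the GGsTop libraries, again within wide intervals. Agr2 differed by -1.32 (95% interval -2.97 to 0.33, limma adjusted p = 0.252), and Tff2 by -1.17 (-3.04 to 0.69). The intervals for Clca1 were -2.44 to 0.92 around -0.76, for Itln1 -1.91 to 0.75 around -0.58, and for Fcgbp -1.50 to 1.56 around 0.03. For Gcnt3 the exact permutation test gave p = 0.714. Of all alternative fits, the one with sample weights called Agr2 and no other called a member. These libraries do not exclude changes under GGsTop of a size within those intervals.

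The GGsTop libraries differed widely among themselves. Standardised over the 11 libraries and averaged over the 9 members, the program stood at -1.52 to -0.78 in PBS, at 0.18 to 0.78 in OVA/LPS/Vehicle, and at 0.48, 0.64, -0.64 and 1.24 in OVA/LPS/GGsTop 1 to 4. Library 3 of that group was the lowest and library 4 the highest of the 4 for all 10 members. Without OVA/LPS/GGsTop 3 the log2 difference from vehicle became 0.77 for Muc5ac, 1.05 for Muc5b, 0.74 for Spdef (limma adjusted p = 0.0796), 0.16 for Clca1 and -0.71 for Agr2, and still none was called.

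Within the GGsTop group these differences moved with markers of several tissues, those of large airway tissue among them. The basal cell markers summed to 9.56, 26.2, 1.58 and 100.4 FPKM in GGsTop libraries 1 to 4, the same order of libraries as the mucus program. In vehicle libraries 12, 34, 56 and 78 they summed to 58.2, 52.2, 47.9 and 34.1 FPKM, an order that the program did not share, since it stood at 0.45, 0.68, 0.18 and 0.78 there. Cartilage genes (5 listed) summed to 0.328, 14.7, 0.256 and 55.4 FPKM in the GGsTop libraries and to 55.7 FPKM in PBS 2, where 9 of the 10 members were the highest of the PBS group. The ciliated, general epithelial, smooth muscle and cardiac muscle lists had the same order in the GGsTop libraries. Cardiac muscle markers summed to 873, 1922, 557 and 2295 FPKM in GGsTop libraries 1 to 4. The club cell, alveolar, gland, gastric, eosinophil, and thymus and thyroid lists did not have this order. None of the 6 basal markers was called in any of the 3 comparisons, and their part in the member values was not tested. Of the ciliated markers 4 of 8 were called higher in OVA/LPS/GGsTop than in PBS, where 2.06% of all genes were. PBS 2 had as much basal marker signal as the vehicle libraries (47.2 FPKM) and 0.376 FPKM of Clca1. OVA/LPS/GGsTop 3 had less basal signal than any PBS library, 67.0 FPKM of Clca1 and 1.51 FPKM of Muc5ac. Spdef, Foxa3, Itln1 and Gcnt3 were likewise higher in OVA/LPS/GGsTop 3 than in PBS 2. The other 4 members were lower in OVA/LPS/GGsTop 3 than in PBS 2. PBS 2 exceeded OVA/LPS/GGsTop 3 for Muc5b (13.0 against 9.46 FPKM), Agr2 (13.1 against 2.06), Tff2 (11.5 against 10.1) and Fcgbp (2.62 against 1.81). These contrasts set a single library against another, and their cause was not tested.

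**Figure D3:**
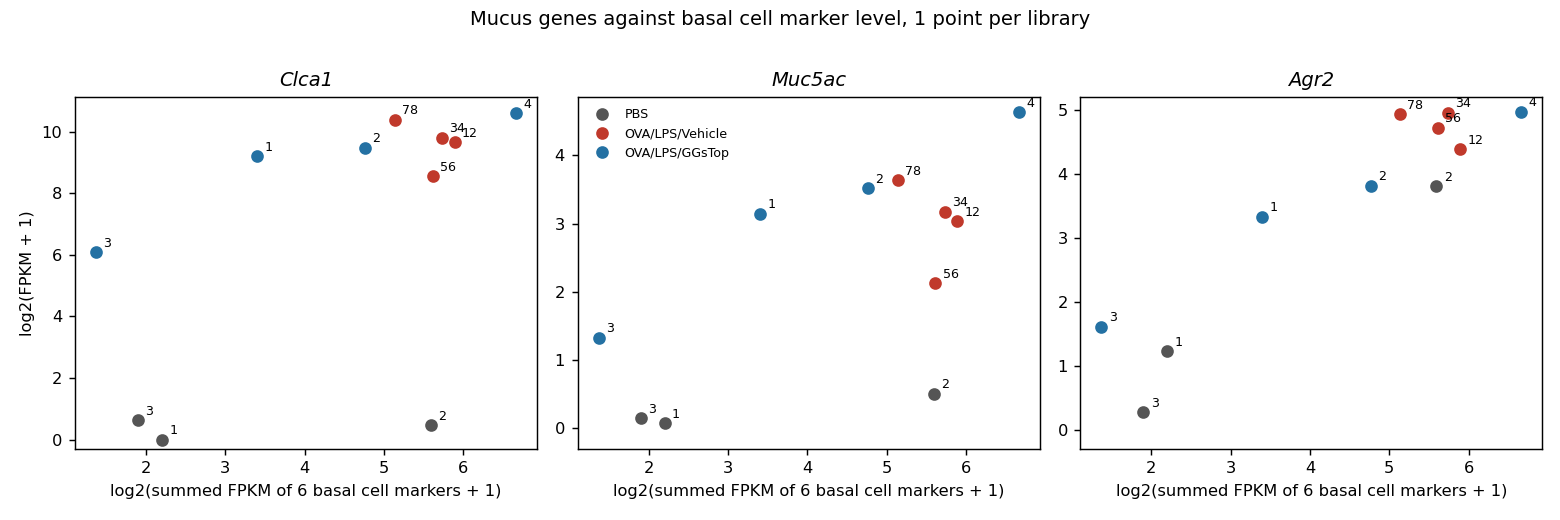
Clca1, Muc5ac and Agr2 as log2(FPKM + 1) against the summed level of 6 basal cell markers on the same scale, 1 point per library with its number. PBS 2 lies among the vehicle libraries on the horizontal axis but near the other PBS libraries for Clca1 and Muc5ac, and the GGsTop libraries 3, 1, 2 and 4 climb from left to right in all 3 panels.

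Mucus genes were also higher in OVA/LPS/GGsTop than in PBS airways. The calls share the PBS libraries with the first comparison and are not independent of it. Clca1 was higher by 8.48 on the log2 scale (SE 0.83, limma adjusted p = 0.00087), Tff2 by 4.20 (0.92, 0.0372), Muc5b by 3.11 (0.72, 0.0452), Muc5ac by 2.91 (0.60, 0.0302) and Spdef by 1.91 (0.31, 0.0144). Fcgbp, Itln1, Agr2 and Foxa3 were not called, with log2 differences of 2.82, 2.57, 1.67 and 1.15 and adjusted p-values of 0.0674, 0.0583, 0.271 and 0.0900. Without overlap, 6 of the 10 members lay above PBS (Muc5ac, Spdef, Foxa3, Clca1, Itln1 and Gcnt3), as did 7.22% of all tested genes.

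The number of calls in this comparison depended on single libraries. Only Clca1 remained without PBS 1, without PBS 3 or without OVA/LPS/GGsTop 1, and Clca1 and Spdef without OVA/LPS/GGsTop 2, whereas 8 members were called without OVA/LPS/GGsTop 3 or without PBS 2. Leaving out OVA/LPS/GGsTop 4 gave 3 calls. A limma fit with the replicate number as a block leaves out OVA/LPS/GGsTop 4 in effect. In it Clca1, Spdef and Muc5ac were called (adjusted p = 0.0124, 0.0459 and 0.0498) and Muc5b and Tff2 were not (0.0540 and 0.0560). By mean level PBS was thus lowest for every member, although the GGsTop libraries overlapped with PBS for Muc5b, Agr2, Fcgbp and Tff2. No member was called between the 2 OVA/LPS groups, where the intervals were wide.

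A ratio of 2 members within a library leaves out any scaling that both share. The 4 ratios given here were chosen after the values were seen. Muc5ac per Muc5b was 0.0323 to 0.0966 in PBS, 0.199 to 0.370 in OVA/LPS/Vehicle and 0.160 to 0.295 in OVA/LPS/GGsTop, so that both OVA/LPS groups stood above PBS and overlapped each other (exact two-sided permutation p = 0.0571 for either against PBS, adjusted p = 0.0952). The PBS ratios rest on 9, 70 and 22 Muc5ac fragments in PBS 1, 2 and 3. On the log2(FPKM + 1) scale the Muc5ac difference from PBS minus that of Muc5b was near 0, at 0.12 for vehicle and -0.20 for GGsTop. Clca1 per Muc5ac was nearly constant in the vehicle libraries, at 111 to 117 (113 ± 2.74, SD, n = 4), and lay at 75.1, 68.0, 44.4 and 65.3 in GGsTop libraries 1 to 4, all lower.

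Agr2 per Muc5b was 0.933, 1.11, 1.50 and 0.955 in the vehicle libraries but 0.241, 0.325, 0.218 and 0.378 in the GGsTop libraries, also without overlap. On the log2(FPKM + 1) scale the Agr2 difference minus the Muc5b difference was -1.79 between these groups, and -1.56 after GC correction. Tff2 per Muc5b was 3.34 to 14.5 in the vehicle and 1.07 to 2.49 in the GGsTop libraries, again without overlap. PBS values of Agr2 per Muc5b were 1.25, 1.01 and 0.183, overlapping with both other groups. Between the OVA/LPS groups an exact two-sided permutation test gave p = 0.0286 for Clca1 per Muc5ac, Agr2 per Muc5b and Tff2 per Muc5b, the smallest value that 4 against 4 libraries allow, and p = 0.257 for Muc5ac per Muc5b. Adjusted over the 10 tests of these ratios the smallest p was 0.0952. Against PBS the exact permutation test cannot give a p below 0.0571. No ratio could therefore have passed the threshold after adjustment, even with every test at its smallest possible value. The adjusted values thus do not decide whether the ratios differed.

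**Figure D4:**
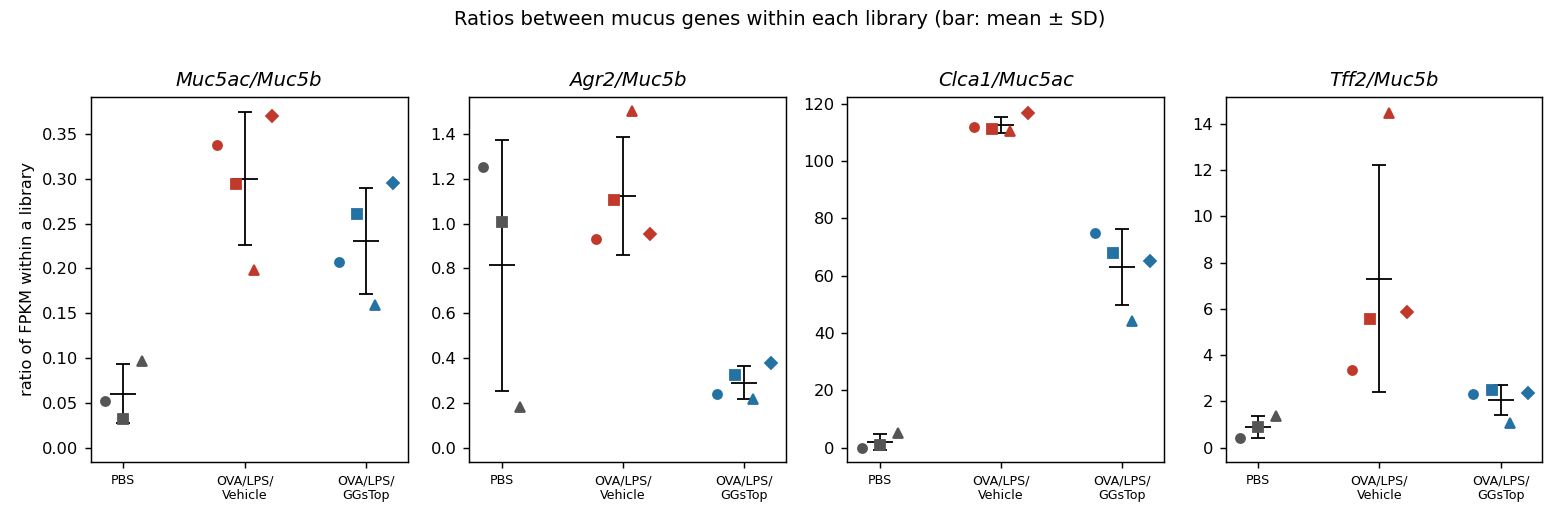
Ratios of FPKM within each library for Muc5ac/Muc5b, Agr2/Muc5b, Clca1/Muc5ac and Tff2/Muc5b, by group, with mean and SD. The GGsTop points lie below all vehicle points for the last 3 ratios and overlap them for Muc5ac/Muc5b.

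Across the 11 libraries the 9 tested members were correlated with each other, with Pearson r of 0.724 to 0.985 over 36 pairs (median 0.906). These values describe libraries that share group, depth and dissection. Agr2 followed the mean of the others least closely (r = 0.845) and Fcgbp most closely (0.982). Outside the members, the genes most like the program were Scin (r = 0.996), which encodes an actin-severing protein, followed by Deup1 (0.988), a factor of centriole amplification in ciliated cells, the centrosomal kinase Nek2 (0.986), the metalloprotease Adam28 (0.983) and the dynein light chain Tctex1d4 (0.982). Scin was at 0.649 ± 0.839 FPKM in PBS (SD, n = 3), 6.98 ± 1.91 in OVA/LPS/Vehicle and 6.73 ± 3.99 in OVA/LPS/GGsTop (n = 4 each).

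Of the other mucins 10 were in the table and 4 reached the test, with a background of 15.9% higher in OVA/LPS/Vehicle against PBS. Mucl1, a small mucin-like secretory gene, was the single call in OVA/LPS/Vehicle against PBS (0.324 ± 0.561 to 1.58 ± 0.686 FPKM, log2 fold change 1.01, SE 0.30, limma adjusted p = 0.0225). It was not called after GC correction (adjusted p = 0.267). The membrane mucin Muc1 was abundant in all groups, at 72.6 ± 11.7 FPKM in PBS, 64.1 ± 14.8 with vehicle and 89.6 ± 16.6 with GGsTop. None of the 4 was called between the OVA/LPS groups by limma or voom, where 1 had an unadjusted p under 0.05.

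The enzymes of mucin-type O-glycosylation, which attach and extend the sugars of mucins, rose in part. In OVA/LPS/Vehicle against PBS 6 of 16 tested were higher and 1 was lower, with a median log2 fold change of 0.32 against -0.01 over all genes. Among all genes 15.9% were called higher and 22.1% lower. Higher were Galnt1, Galnt3, Galnt7 and Galnt12, which start the chains, together with the core 1 synthase C1galt1 and its chaperone C1galt1c1. Galnt3 had the largest of these changes, from 2.91 ± 1.05 to 7.55 ± 0.894 FPKM (log2 fold change 1.16, SE 0.20, limma adjusted p = 0.0039). The sialyltransferase St3gal1 fell by 0.72 on the log2 scale (SE 0.17, adjusted p = 0.0109). After GC correction Galnt3, Galnt7 and Galnt12 stayed higher and St3gal1 lower, and the fucosyltransferase Fut2 was called higher (adjusted p = 0.0441). Galnt1 (adjusted p = 0.113), C1galt1 (0.0514) and C1galt1c1 (0.270) were no longer called, and C1galt1c1 turned to a log2 difference of -0.15. No enzyme was called in OVA/LPS/GGsTop against OVA/LPS/Vehicle by limma or voom, although 6 had an unadjusted p under 0.05.

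The secretory machinery of goblet cells moved in both directions. Of 17 genes, 4 were higher and 4 lower in OVA/LPS/Vehicle than in PBS, where 15.9% of all genes were higher and 22.1% lower. Higher were the stress sensor of mucus cells Ern2 (log2 fold change 1.29, SE 0.38, limma adjusted p = 0.0229), the secretory transcription factor Creb3l4 (1.41, 0.33, 0.0090), the Agr2 homologue Agr3 (1.43, 0.32, 0.0085) and the granule-release protein Marcks (0.99, 0.29, 0.0210). Among the lower genes were regulators of exocytosis that are shared with many cell types, Unc13d (-1.33, 0.18, 0.0034), Stxbp2 (-0.47, 0.14, 0.0232) and Unc13b (-0.31, 0.09, 0.0179). After GC correction 5 of the 17 were called higher, where 7.87% of all genes were. They were Ern2, Creb3l4, Agr3, Xbp1 (adjusted p = 0.0273) and Bhlha15 (0.0241). Unc13d and Unc13b stayed lower, whereas Marcks (adjusted p = 0.0549) and Stxbp2 (0.134) were no longer called. In OVA/LPS/GGsTop, Unc13d (0.64 on the log2 scale, adjusted p = 0.0427) and Unc13b (0.34, 0.0305) were higher than in OVA/LPS/Vehicle (background 6.9%), and neither was called after GC correction, when 0.4% of all genes were.

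Further products of mucus cells were higher as well. Of 8 tested genes 5 were called higher in OVA/LPS/Vehicle than in PBS (background 15.9%). After GC correction 3 of these were called higher (background 7.87%). Bpifb1, a secreted lipid-binding protein of mucous cells, went from 24.9 ± 38.3 to 233 ± 42.3 FPKM (log2 fold change 4.65, SE 1.08, limma adjusted p = 0.0094), and the antibody transporter Pigr from 40.9 ± 45.9 to 176 ± 41.9 FPKM (2.62, 0.69, 0.0143). The anion exchanger Slc26a4 changed by 2.06 (0.46, 0.0082) and the channel subunit Gabrp by 0.74 (0.24, 0.0345). Retnlb, a goblet cell product, was listed at 0 in all PBS libraries and at 0.270 to 1.63 FPKM in the vehicle libraries. Between the OVA/LPS groups limma and voom called none, and 1 had an unadjusted p under 0.05.

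Of 18 tested upstream signals and regulators, 5 were higher and 5 lower in OVA/LPS/Vehicle, where 15.9% of all genes were higher and 22.1% lower. The cytokine Il4 (log2 fold change 0.76, SE 0.25, limma adjusted p = 0.0321), the receptor chain Il13ra1 (1.27, 0.31, 0.0112) and the epithelial factors Foxa1 (0.45, 0.16, 0.0437), Elf3 (1.12, 0.36, 0.0325) and Ehf (1.09, 0.24, 0.0081) rose. The receptor chain Il4ra (-0.79, 0.22, 0.0169), its signal transducer Stat6 (-0.55, 0.13, 0.0088), the growth factor Hbegf (-0.62, 0.19, 0.0256) and the receptors Notch1 (-1.34, 0.25, 0.0045) and Notch2 (-0.55, 0.13, 0.0107) fell. After GC correction Il13ra1, Foxa1, Elf3 and Ehf were called higher and Notch1 and Notch2 lower, whereas Il4 (adjusted p = 0.164), Il4ra (0.0967), Stat6 (0.0581) and Hbegf (0.0770) were not called. Of the 11 fits that left out 1 library, 8 lost the call of Foxa1, 5 that of Elf3, and 4 each those of Il4 and Hbegf. Il13 itself was under the filter, at 0 to 0.316 FPKM. Stat6 and Notch1 were higher in OVA/LPS/GGsTop than in OVA/LPS/Vehicle (0.46 and 1.07 on the log2 scale, limma adjusted p = 0.0389 and 0.0242, background 6.9%). Neither was called after GC correction.

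Part of a list of genes that respond to interleukin 13 in airway tissue rose. In OVA/LPS/Vehicle 5 of 11 were called higher than in PBS and none lower (background 15.9% higher and 22.1% lower). The 5 were also called after GC correction, when Postn was called lower (adjusted p = 0.0239). Retnla, a resistin-like protein of macrophages and epithelium, went from 54.2 ± 19.3 to 3489 ± 1096 FPKM (log2 fold change 5.98, SE 0.42, limma adjusted p = 0.00019). The chitinase-like genes Chil4 (7.30, 0.82, 0.0024) and Chil3 (2.65, 0.53, 0.0057), the eotaxin Ccl11 (2.20, 0.40, 0.0045) and the glucose transporter Slc5a1 (1.05, 0.26, 0.0123) were the others. Of these Retnla, Chil4, Chil3 and Ccl11 were also higher in OVA/LPS/GGsTop than in PBS (background 2.06%). None of the 11 was called between the OVA/LPS groups by limma or voom, and 2 had an unadjusted p under 0.05.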

How the data were processed

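Airway mRNA in 11 mouse libraries (3 PBS, 4 OVA/LPS/Vehicle, 4 OVA/LPS/GGsTop) was sequenced on an Illumina NovaSeq. The authors deposited 1 table of FPKM values for 21899 Ensembl genes. According to the submitters' processing notes, reads were trimmed with cutadapt 1.15, aligned to mm39 with HISAT2 2.0.5 and counted with HTSeq 0.9.1. How counts became FPKM is not given in the sources used here. Identifiers were matched to symbols in GENCODE M21 (21795 matched, and the identifier with the highest mean was kept for 26 shared symbols). With exon lengths of that release, 21364 genes (97.6%) gave whole fragments in all libraries within 0.02 fragments. The depth implied by the FPKM steps was 14513136 to 18632380 fragments.

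Values were tested as log2(FPKM + 1) with limma 3.58.1 (R 4.3.3, mean-variance trend) on the 14004 genes whose mean reached 0.5 FPKM, all groups in 1 fit, with Benjamini-Hochberg adjustment over all genes tested and a threshold of 0.05. Gcnt3 was examined with an exact permutation test. The fit was tested on simulated data. Alternatives were a pseudocount of 0.1, no filter or a mean of at least 1 FPKM, other scalings, other limma settings, a GC correction (spline with 5 degrees of freedom per library), limma voom on the recovered fragments, and each library left out. PBS and OVA/LPS/GGsTop libraries share the numbers 1 to 3. Same-numbered libraries deviated together (r = 0.37, 0.43 and 0.43), while differently numbered libraries reached r = 0.46, 0.64 and 0.22. By the rule that every pair exceed 0.1 a fit with the number as a block is given beside that comparison, without OVA/LPS/GGsTop 4 in effect. This rule cannot tell pairs from unpaired libraries, since differently numbered libraries reached a higher r for numbers 1 and 2. No source says that the numbers mark a shared day or cage.

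The members and gene lists were chosen with earlier results of these data known. Named were all members, genes of each related list with an adjusted p under 0.05 in vehicle against PBS or GGsTop against vehicle, and the 5 genes with the highest correlation with the members. Muc1, Muc2, Tff3, Il13, Postn, Fut2, Xbp1, Bhlha15 and single marker genes beyond the 2 most abundant of a list were named after their values were seen. No label states that libraries come from separate animals, so p-values measure the spread between libraries, which may be technical. The values of 1 gene of the related lists are not reported here. Counting floors cover counting error only.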

Additional observations from a re-analysis of the deposited data

How the results depend on the processing

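In OVA/LPS/Vehicle against PBS the 9 member calls were also 9 or 10 in all alternatives other than leaving out a library, where they ranged from 5 to 9, and the calls of the related lists (36) were 49 with sample weights, 27 after GC correction, and 22 (without PBS 3) to 42 with 1 library left out. In OVA/LPS/GGsTop against OVA/LPS/Vehicle the count of members was 0 in each setting except with sample weights, where it was 1, and 0 in all fits that left out a library. The related lists had 4 calls there, 10 with the same FPKM total, 23 with sample weights, 16 with only the groups compared, 0 after GC correction and 0 to 16 with 1 library left out. In OVA/LPS/GGsTop against PBS the 5 member calls became 2 without a filter, 3 with robust estimation, 9 with sample weights, 1 with only the groups compared, 3 with voom, 3 with the replicate block (7 with the block and GC correction) and 1 to 8 with 1 library left out. The related lists had 6 calls there, 27 with sample weights, 3 with only the groups compared, 11 after GC correction and 2 to 22 with 1 library left out. The causes were not tested. The block could be fitted for that comparison alone.

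Single log2 differences changed sign in OVA/LPS/GGsTop against OVA/LPS/Vehicle for 5 members, none of them called. Muc5ac was -0.20 with sample weights, -0.0035 after GC correction and -0.33 to 0.77 with 1 library left out. Foxa3 was -0.022 with the same median, -0.0033 without mitochondrial genes, -0.23 with sample weights, -0.17 after GC correction and -0.25 to 0.24 with 1 library left out. Fcgbp was -0.049 with a pseudocount of 0.1, -0.018 with the same median, -0.050 with voom, -0.30 with sample weights, -0.25 after GC correction and -0.50 to 0.82 with 1 library left out. Clca1 ranged from -1.34 to 0.16 and Itln1 from -0.97 to 0.17 with 1 library left out. With 3 or 4 libraries a group the spread between libraries set the width of the intervals, and by depth Gcnt3 and Foxa3 rested on at most 52 and 121 fragments a library.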

Other observations

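In the OVA/LPS/GGsTop libraries other secretory genes of the upper conducting airways varied in the order of the mucus program, and in the vehicle libraries they did not. Bpifa1, an abundant secreted protein of nasal and tracheal secretory cells, was at 373, 3518 and 42.0 FPKM in PBS 1, 2 and 3. In OVA/LPS/Vehicle 12, 34, 56 and 78 it was at 2419, 3591, 3717 and 1714 FPKM, and in OVA/LPS/GGsTop 1 to 4 at 455, 1191, 29.1 and 4708 FPKM. Scgb3a1, a secretoglobin of large airways, was at 160, 1349 and 35.7 FPKM in PBS, at 1773, 2961, 3113 and 2458 FPKM with vehicle, and at 1205, 1711, 245 and 4097 FPKM in OVA/LPS/GGsTop 1 to 4. Ltf, a glandular iron-binding protein, was at 80.8, 158, 15.1 and 452 FPKM in the same 4 libraries and at 251, 364, 522 and 222 FPKM with vehicle. Vehicle 56 was thus the highest of its group for all 3 genes and the lowest for the program. In contrast Scgb1a1, the general club cell secretoglobin, was highest of that group in library 3, at 47126 FPKM, and lowest in library 4, at 38967 FPKM.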
